A study of Mus musculus with 11 samples.

Results

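Genes that build or fold the basement membrane laid down by parietal endoderm were followed across RNA-seq libraries of mouse embryonic stem cells (ESCs) and embryoid bodies (EBs). The set was a list of named genes matched by symbol to the deposited table, and holds 10 of its 39179 gene identifiers. They are the laminin chains Lama1, Lamb1, Lamc1 and Lama5, the collagen IV chains Col4a1 and Col4a2, and Nid1, Hspg2, Sparc and Serpinh1. All 10 passed the filter on low values, and none was close to it.

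The study compared Mettl3 knockout (KO) cells with cells that keep the Mettl3 gene (WT), and EBs with ESCs. Mettl3 is the enzyme that places N6-methyladenosine, a methyl mark, on messenger RNA. The groups were KO EBs with 2 libraries, WT EBs with 2 libraries, KO ESCs with 3 libraries and WT ESCs with 3 libraries, lettered A, B and C, and the labels give the strain of all of them as C57BL/6. EBs of both genotypes were floating aggregates grown for 8 to 21 days in medium with 15% serum, whereas ESCs of both genotypes were kept without serum, with LIF, the GSK3 inhibitor CHIR99021 and the MEK inhibitor PD0325901. The labels do not give the day of each EB library, nor how many knockout clones the libraries stand for. Time in culture, serum and loss of the inhibitors all differ between EBs and ESCs and cannot be told apart from differentiation.

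A basement membrane is a thin sheet of matrix under epithelia, in which a laminin network and a collagen IV network are joined by nidogen and perlecan. A laminin molecule is a trimer of an alpha, a beta and a gamma chain, and Lama1 and Lama5 encode alternative alpha chains that pair with the same beta and gamma chains, Lamb1 and Lamc1. Primitive endoderm, the first endoderm of the mouse embryo, gives rise to parietal endoderm, which secretes the thick Reichert's membrane, and to visceral endoderm, and both can form in EBs.

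Col4a1 and Col4a2 lie head to head on chromosome 8, and their annotated first exons overlap. The shared stretch is shown because both collagen IV chains start from it, and it spans chr8:11312805-11312826 in GRCm38, written on the plus strand, on which Col4a2 is read.
Col4a1/Col4a2 overlap: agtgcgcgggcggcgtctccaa
This overlap is 22 bases, and the counting of the deposited table may or may not have used strand, so reads inside it cannot be assigned to either gene. Promoter sequences from RefSeq (GRCm38.p6) were present for 8 of the 10 genes. The 3 printed here belong to a laminin chain and a collagen chaperone that were high in WT EBs, and to Lama5, which was not. They are the bases that precede the first annotated exon, 5′ to 3′ on the gene's strand, at chr12:31265043-31265233 for Lamb1, chr7:99353240-99353489 for Serpinh1 and chr2:180225860-180226109 for Lama5. Capitals mark the GC box (GGGCGG) and the CCAAT box (CCAAT) on either strand.
Lamb1 promoter: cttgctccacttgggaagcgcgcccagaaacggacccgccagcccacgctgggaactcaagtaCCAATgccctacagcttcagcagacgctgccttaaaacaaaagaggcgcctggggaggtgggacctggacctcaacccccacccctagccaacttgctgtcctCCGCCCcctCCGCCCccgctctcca
Serpinh1 promoter: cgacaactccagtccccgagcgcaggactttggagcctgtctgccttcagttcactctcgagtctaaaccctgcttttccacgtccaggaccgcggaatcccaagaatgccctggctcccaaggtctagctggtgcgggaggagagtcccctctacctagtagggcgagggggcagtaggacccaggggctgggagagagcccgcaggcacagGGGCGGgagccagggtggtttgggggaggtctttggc
Lama5 promoter: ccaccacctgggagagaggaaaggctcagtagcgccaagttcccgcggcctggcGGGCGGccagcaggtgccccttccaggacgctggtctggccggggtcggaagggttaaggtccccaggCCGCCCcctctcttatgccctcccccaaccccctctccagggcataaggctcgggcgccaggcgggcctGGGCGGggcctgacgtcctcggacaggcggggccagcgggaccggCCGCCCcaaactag
The Lamb1 window held 2 GC boxes and 1 CCAAT box, the Serpinh1 window 1 GC box, and the Lama5 window 4 GC boxes. Over 32841 mouse promoter windows of 250 bases, 32.7% held a GC box and 33.9% a CCAAT box. Words for GATA factors (AGATAA as well as TGATAA), searched on both strands, occurred in 0 of the 8 member windows of 250 bases, against 16.6% of all windows. Words for SOX factors (ACAATG, also ACAATA, also ACAAAG) occurred in 0 of the 8, against 30.5% of all windows. The TATAAA word was also in 0 of the 8 windows, against 12.4% of all windows. Only 2 of the 8 windows held no annotated exon, and the RefSeq start used for Sparc lies 3103 bases from its annotated start. G and C made up 54% to 74.4% of the member windows, against a median of 52.4% over all windows. The GATA, SOX and TATAAA words hold mostly A and T, so a lack of sites cannot be read from these counts.

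Mettl3 reads checked the labels: Mettl3 stood at 154 and 147 normalized counts in KO EBs against 399 and 368 in WT EBs, and at 138, 133 and 131 in KO ESCs against 422, 392 and 425 in WT ESCs. The ESC libraries lettered C, which the labels say were measured alongside a SILAC protein assay, held 3075007 (KO) and 3026837 (WT) reads in genes, and the other 8 libraries 8523027 to 15426894. They also stood apart: across genes, C correlated with A or B of its group at r = 0.653 to 0.692, whereas A and B of a group correlated at 0.989 to 0.990. Pairs A and B still differed by more than sampling noise, with a chi-square per degree of freedom of 8.65 to 11.8 over genes. Results that rest on ESC libraries are therefore given with and without C. A level of 3 reads, taken as the floor, was 8.33 (KO) and 9.88 (WT) normalized counts in the C libraries and at most 2.72 in the others, far under all values of the 10 genes.

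The laminin chains Lama1, Lamb1 and Lamc1, both collagen IV chains and Sparc fell in KO EBs relative to WT EBs, and none of the 10 genes rose by the same test. Lama5, Nid1 and Hspg2 did not pass the test, and the larger of their KO and WT EB means was at most 1.73 times the smaller. Calls use a limma fit over all 15781 tested genes, with Benjamini-Hochberg adjusted p under 0.05. By that rule 6 of the 10 genes were lower, beside 1.37% of all tested genes, and 0 were higher, beside 0.469%. Their median log2 difference was -3.73, and that of all tested genes -0.02. Bulk RNA cannot tell fewer cells of a type apart from less RNA per cell.

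**Figure D1:**
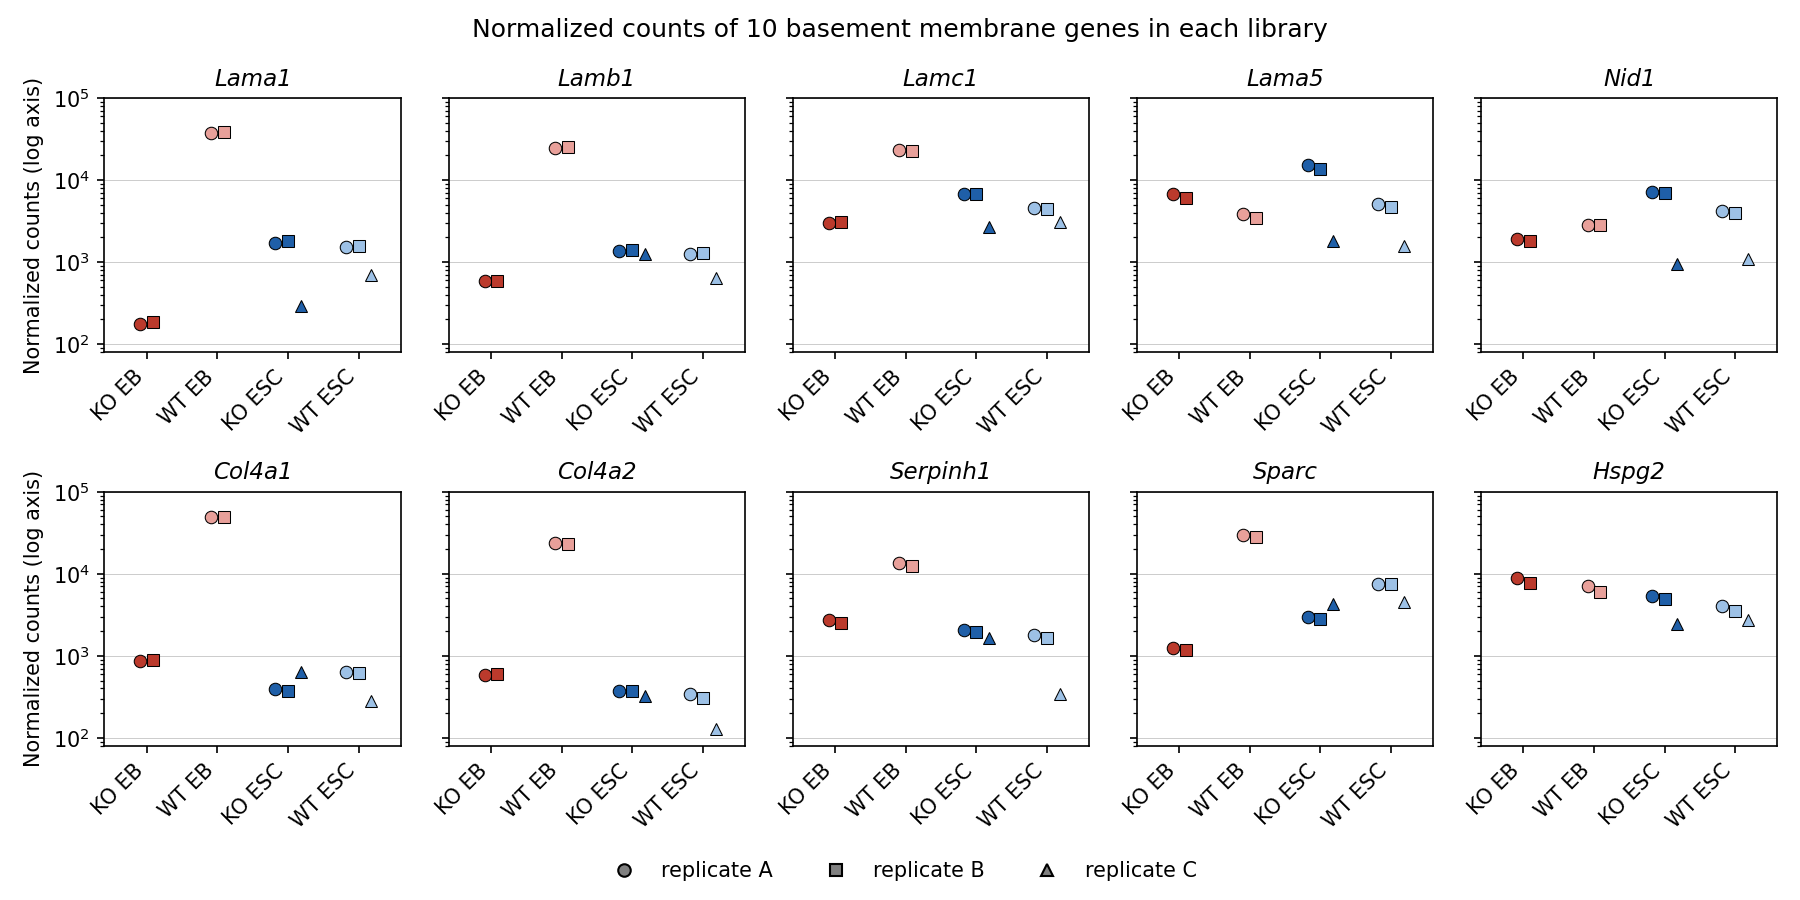
Normalized counts of the 10 genes (log axis) in each library, by group, with 1 point per library and its shape giving the replicate letter. For Lama1, Lamb1, Lamc1, Col4a1, Col4a2, Serpinh1 and Sparc both WT EB libraries lie above all other libraries, whereas Lama5, Nid1 and Hspg2 show no such gap.

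Among the laminin chains, Lama1 had 176 and 186 normalized counts in KO EBs, against 37701 and 38512 in WT EBs. It was the lowest of the 10 genes in KO EBs, and the WT mean was 211 times the KO mean (log2 difference -7.71, SE 0.85, limma adjusted p = 0.00809). Lamb1, the beta chain, had 591 and 588 normalized counts in KO EBs, against 24609 and 24939.7 in WT EBs (log2 difference -5.39, SE 0.32, adjusted p = 0.00343). Lamc1, the gamma chain, had 3029.8 and 3054 in KO EBs, against 23144 and 22521 in WT EBs. The Lamc1 difference was smaller, at -2.91 on the log2 scale (SE 0.44, adjusted p = 0.0266), and the WT mean was 7.51 times the KO mean. KO and WT EBs did not overlap for any of these 3 chains. Lack of overlap is given here and below as description only, since its share over all genes was not counted. Lama5, Nid1 and Hspg2, which were not called, did not overlap between KO and WT EBs either.

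The alternative alpha chain Lama5 had 6665 and 6044 normalized counts in KO EBs, against 3865 and 3493 in WT EBs. Both KO libraries were above both WT libraries, but the log2 difference of 0.79 (SE 1.02) was within the spread of the fit (limma adjusted p = 0.943). Nid1, which encodes nidogen, the link between the laminin and collagen IV networks, had 1889.9 and 1786 in KO EBs, against 2831 and 2795 in WT EBs (log2 difference -0.61, SE 1.03, adjusted p = 0.995). In the annotation 2.06% of the Nid1 exon bases are covered by a gene on the other strand.

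Col4a1 had 864 and 895 normalized counts in KO EBs, against 49822 and 49659 in WT EBs. This was the most counted of the 10 genes in WT EBs, and the WT mean was 56.5 times the KO mean (log2 difference -5.82, SE 0.42, limma adjusted p = 0.00343). Its partner Col4a2 had 585 and 608 in KO EBs, against 23895 and 22925 in WT EBs (log2 difference -5.29, SE 0.42, adjusted p = 0.00506). Both chains were separated without overlap and by similar factors. Serpinh1, the chaperone that binds procollagen in the endoplasmic reticulum, had 2701 and 2519 in KO EBs, against 13535 and 12385 in WT EBs. The libraries did not overlap, yet the log2 difference of -2.31 (SE 0.71) did not pass (adjusted p = 0.177). It passed where the replicate letter was a block (adjusted p = 0.0384).

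Sparc, a secreted collagen-binding glycoprotein, had 1247 and 1194 normalized counts in KO EBs, against 29366 and 27978 in WT EBs. The groups did not overlap, and the log2 difference was -4.55 (SE 0.31, limma adjusted p = 0.00343). Sparc lies on chromosome 11, where the median log2 difference of 1344 tested genes was -0.44 in EBs and -0.23 in ESCs, against -0.02 over all tested genes in each; the part of this in the Sparc value was not tested. Hspg2, which encodes the heparan sulphate proteoglycan perlecan, had 8801 and 7624 in KO EBs, against 7037 and 5953 in WT EBs (log2 difference 0.34, SE 0.39, adjusted p = 0.913). Both KO libraries of Hspg2 were above both WT libraries, with a gap smaller than the spread of the fit.

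The calls in EBs changed when libraries were left out. With any 1 of the 4 EB libraries left out, limma called 0 of 15781 genes, so that all 6 calls were lost, although 7 of the 10 genes and 1150 to 1178 of all genes kept an unadjusted p under 0.05; the log2 differences of Lama1 were then -7.75 to -7.67 and the lowest adjusted p among the 10 genes was 0.0614. Lamc1 was also lost without KO ESC A (adjusted p = 0.0513), WT ESC A (0.0615) or WT ESC B (0.0606), and Serpinh1 was called without WT ESC C (0.00203), where 6.32% of all genes were called. With the replicate letter as a block, 7 of the 10 genes were called, beside 22.7% of all genes. Without both ESC C libraries, which contribute to the spread but not to the EB means, all 10 were called, beside 51.9% of all genes, with 8 lower in KO EBs and 2 higher, Lama5 (log2 difference 0.79, adjusted p = 0.000167) and Hspg2 (0.34, 0.0356). On the recovered reads edgeR called 6 of the 10 genes, beside 1.83% of all genes, and DESeq2 7, beside 9.83%.

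**Figure D2:**
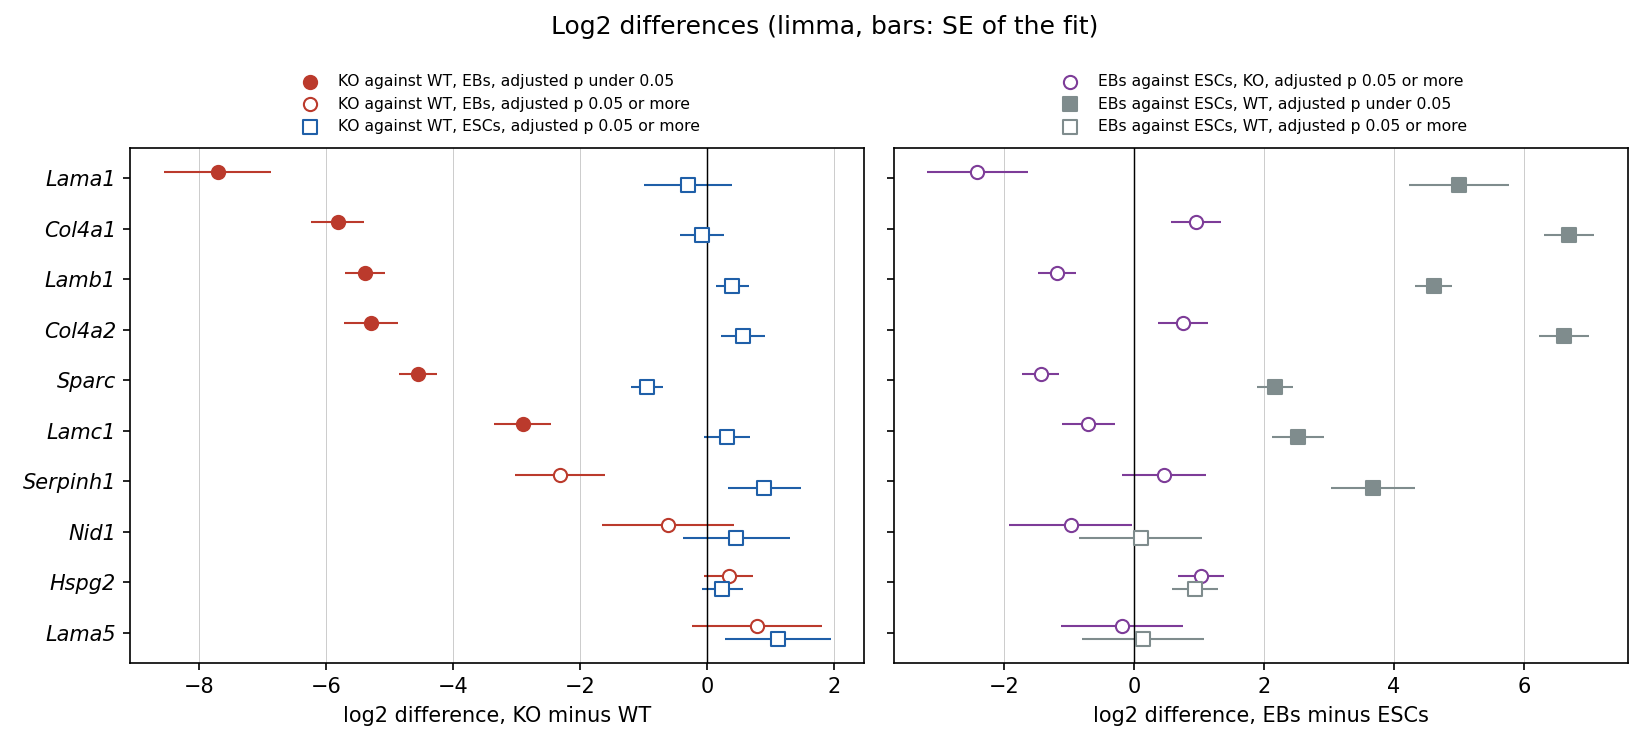
Log2 differences of the 10 genes, with bars giving the SE of the limma fit, filled symbols an adjusted p under 0.05 and open symbols 0.05 or more. On the left, KO minus WT spans -7.71 (Lama1) to 0.79 (Lama5) in EBs and -0.95 (Sparc) to 1.11 (Lama5) in ESCs, and on the right, EBs minus ESCs reaches 6.69 (Col4a1) in WT cells and 1.03 (Hspg2) in KO cells.

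In ESCs none of the 10 genes was called between KO and WT. By limma 0 of 10 passed, beside 2.38% of all tested genes, with 1 at an unadjusted p under 0.05 (Sparc). EdgeR called 0 of the 10, beside 2.39% of all genes, and DESeq2 called 1, beside 12.4%. The median log2 difference of the 10 genes was 0.36, and that of all genes -0.02. Among the laminin chains, Lama1 had 1726, 1795 and 289 normalized counts in KO ESCs A, B and C, against 1517, 1578 and 705 in WT ESCs. The C libraries were the lowest of each group, and the log2 difference of -0.30 (SE 0.69) turned to 0.19 without them. Lamb1 had 1366, 1391 and 1264 in KO ESCs against 1246, 1299 and 646 in WT ESCs (log2 difference 0.40, SE 0.26, adjusted p = 0.535). Lamc1 had 6699, 6690.4 and 2708 in KO ESCs against 4559.5, 4488 and 3054 in WT ESCs (log2 difference 0.32, SE 0.36, adjusted p = 0.801). KO was above WT for Lamc1 in A and B and below it in C.

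Lama5 had 15219.9, 13759 and 1797 normalized counts in KO ESCs, against 5168, 4629 and 1555 in WT ESCs. KO was above WT within each letter, and KO C lay below WT A and B, so the groups overlapped. The log2 difference of 1.11 (SE 0.84) had a limma adjusted p of 0.613, and of 0.0424 with the letter as a block, which called 1 of the 10 genes beside 29.3% of all genes. Nid1 had 7113, 6996 and 942 normalized counts in KO ESCs against 4189.7, 3974 and 1080.4 in WT ESCs (log2 difference 0.46, SE 0.84, adjusted p = 0.932). Hspg2 had 5394, 4893 and 2427 in KO ESCs against 4090.3, 3521 and 2694 in WT ESCs (log2 difference 0.24, SE 0.32, adjusted p = 0.855). For Nid1 and Hspg2 KO was above WT in A and B and below it in C.

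Sparc had 2975, 2832 and 4291 normalized counts in KO ESCs, against 7575, 7530 and 4559 in WT ESCs. All KO libraries were below all WT libraries, with a log2 difference of -0.95 (SE 0.25, limma adjusted p = 0.0973, and 0.0576 with the letter as a block) and a narrow gap in C. The collagen IV chains were low in all ESCs. Col4a1 had 392, 369 and 639 in KO ESCs against 634, 614 and 283 in WT ESCs (log2 difference -0.09, SE 0.35, adjusted p = 0.997), and the order of KO and WT in C was the reverse of that in A and B. Col4a2 had 371, 371 and 322 in KO ESCs against 347, 304 and 128 in WT ESCs (log2 difference 0.57, SE 0.34, adjusted p = 0.489). Serpinh1 had 2059, 1954 and 1666 in KO ESCs against 1800.5, 1666 and 343 in WT ESCs, of which WT C stood far below the others (log2 difference 0.90, SE 0.58, adjusted p = 0.523).

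Without both C libraries limma called 8 of the 10 genes between KO and WT ESCs, beside 55.2% of all genes, so this count is read with that background. The log2 differences were then 1.56 for Lama5, 0.79 for Nid1, 0.57 for Lamc1, 0.44 for Hspg2, 0.21 for Serpinh1 and 0.19 for Lama1, and -0.71 for Col4a1 and -1.38 for Sparc. Leaving out KO ESC C alone called Lamc1 (adjusted p = 0.0474), Lama5 (0.0388) and Sparc (0.0267), beside 13.8% of all genes, and leaving out WT ESC C alone called Sparc (0.0183), beside 8.52%.

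In WT cells 7 of the 10 genes rose in EBs relative to ESCs, beside 2.01% of all tested genes, and 0 fell, beside 0.475%. The median log2 difference of the 10 genes was 3.10, against 0.09 over all genes. Col4a1 and Col4a2 rose most, by 6.69 (SE 0.39, limma adjusted p = 0.0011) and 6.61 (SE 0.38, adjusted p = 0.0011) on the log2 scale, which were 97.5 and 90.1 times the ESC means. Lama1 rose by 5.00 (SE 0.77, adjusted p = 0.0196), Lamb1 by 4.61 (SE 0.29, adjusted p = 0.00138), Serpinh1 by 3.68 (SE 0.65, adjusted p = 0.0314), Lamc1 by 2.52 (SE 0.40, adjusted p = 0.0224) and Sparc by 2.17 (SE 0.28, adjusted p = 0.0109). For each of these 7 genes, and also for Hspg2, both EB libraries were above all 3 ESC libraries. Hspg2 (0.93, SE 0.36, adjusted p = 0.274), Lama5 (0.14, SE 0.93, adjusted p = 0.951) and Nid1 (0.10, SE 0.94, adjusted p = 0.965) did not pass.

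Without WT EB A or WT EB B, 3 of the 7 calls in WT EBs against ESCs were made, for Lamb1, Col4a1 and Col4a2, and Lama1, Lamc1, Sparc and Serpinh1 had adjusted p of 0.167 to 0.306. Without KO EB A, KO EB B, WT ESC A or WT ESC B, 4 were made, and Lama1 (adjusted p 0.0578 to 0.066), Lamc1 (0.0642 to 0.0718) and Serpinh1 (0.0525 to 0.0844) were lost. Serpinh1 alone was lost without KO ESC A (0.0695) or KO ESC B (0.0666), and Hspg2 was gained without KO ESC C (0.0414), where 7.64% of all genes were called. With the letter as a block, 7 of the 10 genes were called, beside 9.52% of all genes. The block fit sets EBs against ESCs at letter A, so it does not average over the C libraries as the main fit does. Without both C libraries all 10 were called, beside 46.1% of all genes, and Lama5 and Nid1 were then lower in EBs, with log2 differences of -0.41 and -0.54.

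In KO cells none of the 10 genes was called between EBs and ESCs by limma, beside 0.805% of all tested genes, and 5 of the 10 had an unadjusted p under 0.05. EdgeR called 0 of the 10, beside 1.23% of all genes, and DESeq2 called 3, beside 8.99%. Lama1 had 176 and 186 normalized counts in KO EBs, under the 289 to 1795 of KO ESCs (log2 difference -2.41, SE 0.77, adjusted p = 0.217). Lamb1 was likewise lower in both KO EB libraries than in all KO ESC libraries (-1.18, SE 0.29, adjusted p = 0.115), and so was Sparc (-1.44, SE 0.28, adjusted p = 0.065). Col4a1 (0.96, SE 0.39, adjusted p = 0.33), Col4a2 (0.75, SE 0.38, adjusted p = 0.463) and Hspg2 (1.03, SE 0.36, adjusted p = 0.251) were higher in both KO EB libraries than in all 3 KO ESC libraries. Col4a1 in KO EBs stood at 1.89 times its KO ESC mean, against 97.5 times in WT cells.

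The remaining members of KO cells showed no called difference either. Lamc1 (-0.70, SE 0.40, adjusted p = 0.52), Nid1 (-0.97, SE 0.94, adjusted p = 0.714) and Lama5 (-0.19, SE 0.93, adjusted p = 0.931) in KO EBs lay between KO ESC C and KO ESC A and B. Serpinh1 differed by 0.47 on the log2 scale (SE 0.65, limma adjusted p = 0.765), with both KO EB libraries above all 3 KO ESC libraries. With the letter as a block, which sets EBs against ESCs at letter A, 3 of the 10 genes fell in KO EBs, beside 8.33% of all genes. They were Lama1 (-3.03, limma adjusted p = 0.0287), Lamb1 (-1.35, adjusted p = 0.0496) and Nid1 (-1.78, adjusted p = 0.038). Without both C libraries all 10 were called, 4 higher and 6 lower in KO EBs, beside 47.3% of all genes. Without KO ESC C alone, Lama1 (adjusted p = 0.0099), Lamc1 (0.0317) and Sparc (0.0421) were called, beside 6% of all genes. Without WT ESC C alone, Lamb1 (0.00564), Col4a2 (0.0247) and Sparc (0.0146) were called, beside 5.82%.

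The KO effect, meaning here the KO minus WT log2 difference, differed between EBs and ESCs for 5 of the 10 genes. This stood beside 0.412% of all tested genes that were lower by this test, which shares its EB libraries with the comparison of KO and WT EBs. With clone number and EB day not given, it cannot be assigned to the knockout alone. The difference of the log2 effects was -7.41 for Lama1 (SE 1.09, limma adjusted p = 0.047), -5.86 for Col4a2 (SE 0.54, 0.0115), -5.79 for Lamb1 (SE 0.41, 0.00749), -5.73 for Col4a1 (SE 0.55, 0.0115) and -3.60 for Sparc (SE 0.39, 0.0179). Lamc1 (-3.23, SE 0.57, adjusted p = 0.0678) and Serpinh1 (-3.21, SE 0.91, 0.276) did not pass, and Lamc1 did with the letter as a block (0.00926). The block called 6 of the 10 genes beside 7.79% of all genes, and without both C libraries 9 were called beside 36.1%. The differences for Nid1 (-1.07, SE 1.33), Lama5 (-0.32, SE 1.32) and Hspg2 (0.10, SE 0.50) each had an adjusted p of 1.

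The calls of this difference were also lost without single libraries. Without any 1 of the EB libraries limma called 0 of the 10 genes, with 7 of them at an unadjusted p under 0.05. Without KO ESC A limma called 3 of all genes, and of the 10 only Lamb1. Adjusted p was then 0.128 for Lama1, 0.0582 for Col4a1 and for Col4a2 and 0.0696 for Sparc. Without KO ESC B, WT ESC A or WT ESC B, Lamb1, Col4a1 and Col4a2 were called, and Lama1 (0.132 to 0.139) and Sparc (0.0508 to 0.0608) were not. These fits called 15, 10 and 15 of all genes. Lamc1 was gained without KO ESC C (0.00434), where 3.15% of all genes were called, and Serpinh1 without WT ESC C (0.00915), where 2.11% were.

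Levels of different genes were set side by side as normalized counts per kilobase of exon, with the exons of all annotated transcripts of a gene merged. This length was 9917 bases for Lamb1 and 8272 for Lamc1, whose longest coding transcripts have 5784 and 7622 bases. Order and ratios between genes therefore depend on the length used. In KO EBs Serpinh1 led the 10 genes, at 1105 and 1031 per kilobase, and Hspg2 (615 and 533) and Lama5 (585 and 531) came next and overlapped. In WT EBs Sparc led, followed by Col4a1. Sparc stood at 329 and 315 per kilobase in KO EBs, against 7752 and 7386 in WT EBs, which are ranks of 805 and 798 in KO EBs and of 12 in both WT EB libraries among 21226 protein-coding genes. Col4a1 stood at 116 and 119.9 per kilobase in KO EBs, with ranks of 3256 and 3079, against 6675 and 6653 in WT EBs, with ranks of 22 and 14. Lama1 was last in KO EBs, at 18.2 and 19.2 per kilobase and ranks of 9809 and 9679, against 3894 and 3978 per kilobase and ranks of 50 and 42 in WT EBs.

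**Figure D3:**
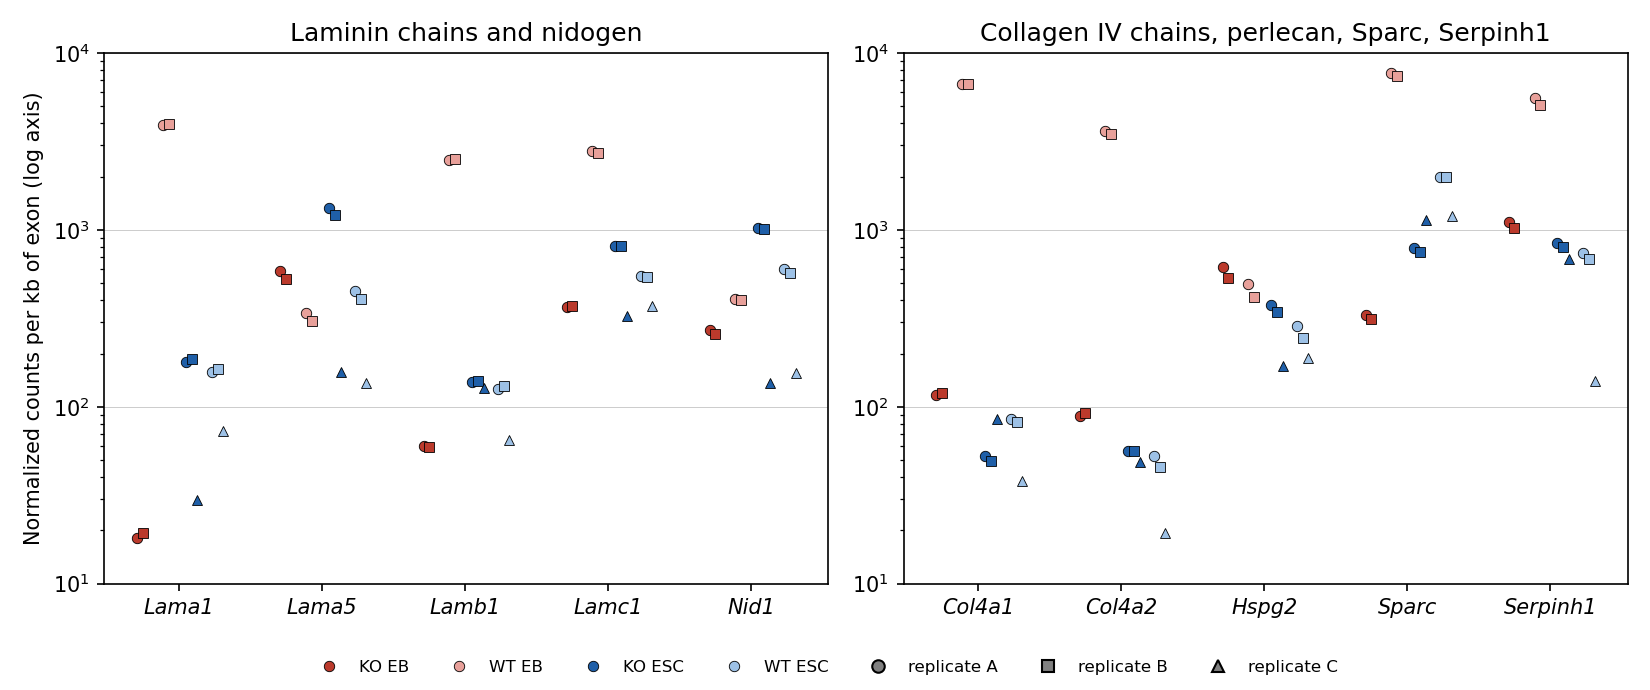
Normalized counts per kilobase of exon (log axis) of the 10 genes, with 1 point per library, colour giving the group and shape the replicate letter. Lama1, Lamb1 and Lamc1 are spread from 18.2 to 369 in KO EBs and lie between 2481 and 3978 in WT EBs.

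Order across the 4 groups differed by gene. For Lama1 and Lamb1, WT EBs were highest and KO EBs lowest, with KO and WT ESCs overlapping in between. Both collagen IV chains were highest in WT EBs, next in KO EBs, and lowest in the ESC groups, which overlapped. Sparc ran from WT EBs through WT ESCs and KO ESCs to KO EBs, with no overlap between neighbours. Lamc1 and Serpinh1 were highest in WT EBs; for Lamc1 the other 3 groups overlapped, and for Serpinh1 KO EBs came next and the ESC groups overlapped. Hspg2 ran from KO EBs through WT EBs to the ESC groups, which overlapped. Lama5 and Nid1 were highest in KO ESCs A and B and lowest in the C libraries, so no order of groups held beyond their spread.

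Ratios between the chains of 1 molecule also differed, and are given per kilobase with no test. Lama1 over Lamc1 was 0.0496 and 0.052 in KO EBs, against 1.39 and 1.46 in WT EBs, and 0.22, 0.229 and 0.0911 in KO ESCs, against 0.284, 0.3 and 0.197 in WT ESCs. Lamb1 over Lamc1 was 0.163 and 0.16 in KO EBs, against 0.887 and 0.924 in WT EBs. It was 0.17, 0.173 and 0.389 in KO ESCs, against 0.228, 0.241 and 0.176 in WT ESCs. So the gamma chain exceeded both others in KO EBs and in all ESC libraries, while the 3 chains had levels of like size in WT EBs. Lama1 over Lama5 was 0.031 and 0.0362 in KO EBs, against 11.5 and 13 in WT EBs. It was 0.133, 0.153 and 0.189 in KO ESCs, against 0.345, 0.401 and 0.533 in WT ESCs. The alpha chain with the higher level was therefore Lama5 in KO EBs and all ESC libraries, and Lama1 in WT EBs. Col4a1 over Col4a2 was 1.31 in both KO EB libraries, against 1.85 and 1.92 in WT EBs. It was 0.936, 0.882 and 1.76 in KO ESCs, against 1.62, 1.79 and 1.96 in WT ESCs.

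The 10 genes together took 0.353% and 0.339% of gene reads in KO EBs, against 2.64% and 2.69% in WT EBs. In ESCs their share was 0.516%, 0.512% and 0.191% in KO libraries, against 0.349%, 0.348% and 0.151% in WT libraries. Within each genotype of ESCs the C library had the lowest share.

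**Figure D4:**
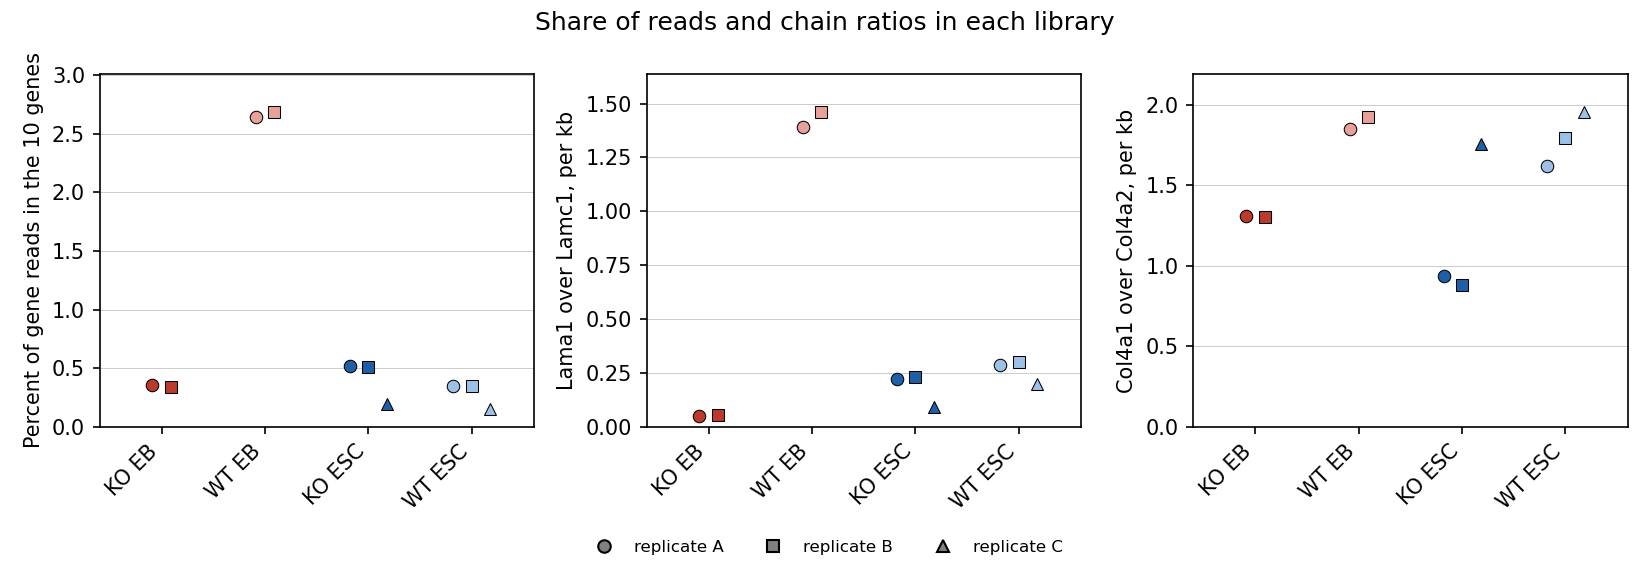
Percent of gene reads in the 10 genes (left), Lama1 over Lamc1 per kilobase (middle) and Col4a1 over Col4a2 per kilobase (right), with 1 point per library and shape giving the replicate letter. The WT EB libraries hold 2.64% and 2.69% of reads in these genes and Lama1 over Lamc1 ratios of 1.39 and 1.46, above all other libraries on both axes.

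The members were alike to different degrees. The correlation of each gene's log2 level with the mean of the other 9 over 10 libraries, which share groups and depth, was 0.976 for Lamc1, 0.959 for Lamb1, 0.930 for Col4a2, 0.898 for Lama1, 0.895 for Col4a1, 0.879 for Serpinh1 and 0.758 for Sparc. It was 0.403 for Hspg2, 0.267 for Nid1 and 0.007 for Lama5. Over the 8 libraries other than the C libraries the first 7 genes had correlations of 0.861 to 0.997, and Hspg2 had 0.083, Nid1 -0.111 and Lama5 -0.561, so the sign turned for Nid1 and Lama5. Among 9277 other genes with a mean of 100 or more, those most like the mean profile of the 10 were Lgmn (an asparaginyl endopeptidase, r = 0.997), Tinagl1 (a matrix protein, 0.991), Gsn (the actin-severing protein gelsolin, 0.983), Dab2 (an endocytic adaptor, 0.979), Gata6 (0.977) and Sox17 (0.977). Lgmn averaged 570.3 normalized counts in KO EBs and 3901 in WT EBs, and Gsn 272 in KO EBs and 2174 in WT EBs.

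In KO against WT EBs limma called 1.37% of all tested genes lower and 0.469% higher, and the replicate block called 22.7% in either direction. The other basement membrane structural genes moved little between KO and WT EBs. Of 27 listed, 20 were tested, 0 were called higher and 1 lower, and their median log2 difference was 0.08, with 3 higher and 1 lower with the letter as a block. The 1 gene was Tinagl1, with 118 and 85.8 normalized counts in KO EBs against 4887 and 3992 in WT EBs (log2 difference -5.44, SE 0.87, limma adjusted p = 0.0294). Col18a1, the most abundant gene of that list that was not called, encodes another collagen of basement membranes and differed by 0.74 (SE 0.89, adjusted p = 0.923). Of 17 genes that cross-link or remodel basement membrane, 2 were lower and 0 higher, with a median of -0.86, and with the block 9 were lower and 1 higher. Pxdn, the peroxidase that cross-links collagen IV, had 326 and 336 in KO EBs against 1619.7 and 1587 in WT EBs (-2.27, SE 0.23, adjusted p = 0.00617). Loxl2, a lysyl oxidase, had 17.7 and 18.7 in KO EBs against 274 and 278 in WT EBs (-3.85, SE 0.67, adjusted p = 0.0361). The lysosomal protease Ctsl, the most abundant not called, differed by -1.88 (SE 0.39, adjusted p = 0.0647).

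Of the genes that fold and modify collagen in the endoplasmic reticulum, 28 of 29 were tested, and 5 were lower and 0 higher in KO EBs, with a median log2 difference of -0.80. With the letter as a block 17 were lower, beside 22.7% of all genes called in either direction. P3h2, a collagen prolyl hydroxylase, had 3.53 and 4.25 normalized counts in KO EBs against 268 and 244 in WT EBs (-5.72, SE 0.70, limma adjusted p = 0.0116). The other called genes were the prolyl hydroxylase subunits P4ha2 (-3.55, adjusted p = 0.0101), P4ha1 (-2.85, 0.0382) and P4hb (-1.85), and the lysyl hydroxylase Plod2 (-2.95, 0.00506). The general chaperone Hspa5 differed by -0.05 (SE 0.37, adjusted p = 1). Of 20 basement membrane receptors 19 were tested, and limma called 0, with 3 at an unadjusted p under 0.05 and a median of -0.30. EdgeR called 0 of these receptors, DESeq2 called 1 higher and 1 lower, and the block 1 higher and 4 lower. These counts stand beside 1.83%, 9.83% and 22.7% of all genes. Sdc4, over all libraries the most abundant receptor, differed by -0.30 (SE 0.55, adjusted p = 1).

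Markers of endoderm moved with the 10 genes in EBs, and their part in the result was not tested. Of 12 regulators of primitive and parietal endoderm, 7 were lower and 0 higher in KO EBs than in WT EBs. Their median log2 difference was -5.05. With the letter as a block 10 were lower, beside 22.7% of all genes called in either direction. The summed level of the 12 regulators was 605 in both KO EB libraries, against 8881 and 8044 in WT EBs, and 543 to 917 in ESCs. The transcription factor Sox17 had 11.3 and 10.2 normalized counts in KO EBs against 1695 and 1223 in WT EBs (-6.94, SE 1.09, limma adjusted p = 0.0287). Gata6, another endoderm transcription factor, had 13.4 and 15.3 in KO EBs against 627 and 545 in WT EBs (-5.26, SE 0.90, adjusted p = 0.0356). Dab2 (-5.27, adjusted p = 0.0052) and Pth1r, a parathyroid hormone receptor (-5.54, 0.0452), were also called, and Foxa2 was not (-5.87, SE 1.17, 0.0549).

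Of 11 other parietal endoderm markers 10 were tested and 3 were lower in KO EBs, the keratins Krt8 (-4.34, limma adjusted p = 0.00506) and Krt18 (-3.50, 0.0101) and the activin-binding protein Fst (-2.88, 0.00617). The median of the tested markers was -3.92, and the sum of the list was 1427 and 1485 normalized counts in KO EBs against 15227 and 16157 in WT EBs. With the letter as a block 8 were lower, beside 22.7% of all genes called in either direction. Vim, over all libraries the most abundant of those not called, differed by -1.35 (SE 0.66, adjusted p = 0.438). Visceral endoderm markers moved as well, so the 10 genes cannot be tied to parietal endoderm alone in these bulk libraries. Of 14 visceral markers 11 were tested and 5 were lower in KO EBs (Afp, Cubn, Apoa1, Amn and Lrp2), with a median of -3.73. With the block 7 were lower, beside the same 22.7% of all genes. Afp, a fetal serum protein, had no read in KO EBs, against 405 and 473 normalized counts in WT EBs, and Apoa4 and Fgb had no read in KO EBs either. Cubn, an uptake receptor, had 4.24 and 10.2 in KO EBs against 2335 and 2702 in WT EBs (-8.36, SE 0.77, adjusted p = 0.00506). The visceral sum was 14069 and 12737 in KO EBs against 23444 and 22488 in WT EBs, and it is mostly not specific, since Apoe differed by 0.05 (SE 0.65, adjusted p = 1).

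Lists of other cell types gave no call between KO and WT EBs by limma. Fibroblast and mesenchyme markers had 13 of 14 tested and a median log2 difference of -0.25, and summed to 12192 and 12285 normalized counts in KO EBs against 13274 and 13129 in WT EBs, with Fn1 at 0.14 (SE 0.76). Endothelial markers had 9 of 10 tested and a median of -0.94, and summed to 1689 and 1723 in KO EBs against 2387 and 2508 in WT EBs. Emcn had no read in KO EBs, but only 1.53 and 0.861 normalized counts in WT EBs, under the floor of 3 reads. All 9 tested endothelial markers had negative log2 differences, none of them called. Pecam1, the largest term of that sum, differed by -0.06 (SE 1.04), whereas Cdh5 had 0 and 0.849 normalized counts in KO EBs, a single read, against 52.9 and 49.9 in WT EBs (adjusted p = 0.118). Esam averaged 24.1 in KO EBs against 221 in WT EBs (-3.19, SE 1.5, adjusted p = 0.418) and Flt1 50.3 in KO EBs against 225 in WT EBs (-2.14, SE 0.86, adjusted p = 0.323). The lower endothelial values in KO EBs stood beside the fall of 6 of the 10 genes, and their part in it was not tested. Trophectoderm markers had 5 of 9 tested and a median of -0.66, and summed to 677 and 579 in KO EBs against 881 and 782 in WT EBs, with Tfap2c at -0.66 (SE 0.71). Cdx2 had no read in KO EBs, against 18.4 and 15.5 normalized counts in WT EBs. Prl3d1 had no read in KO EBs, and 0 and 1.72 normalized counts in WT EBs. Tpbpa had no read in any library. Pluripotency markers had all 12 tested and a median of 0.39, and summed to 36580.4 and 32127 in KO EBs against 24052 and 22049 in WT EBs, with Pou5f1 at 0.38 (SE 0.60). Unadjusted p values under 0.05 came to 0 fibroblast, 3 endothelial, 2 trophectoderm and 2 pluripotency markers, edgeR called 0 in all 4 lists, and DESeq2 called 1 trophectoderm and 1 pluripotency marker, both higher. With the letter as a block, 1 fibroblast marker was higher and 1 lower, 3 endothelial and 1 trophectoderm markers were lower, and 1 pluripotency marker was higher and 1 lower. Over all genes the block called 22.7% and DESeq2 9.83%.

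In ESCs the fibroblast and mesenchyme sum moved with the letter, as Lama5 and Nid1 did. It was 23330, 23430.3 and 2561 normalized counts in KO ESCs A, B and C, against 18451, 18327 and 4852 in WT ESCs. Lama5 and Nid1 in KO ESC C stood at 0.124 and 0.133 times the mean of A and B, and in WT ESC C at 0.317 and 0.265 times. This was not particular to them. Lama1 in C stood at 0.164 (KO) and 0.456 (WT) times, and Serpinh1 at 0.831 (KO) and 0.198 (WT) times. Col4a1 and Sparc went the other way in KO ESC C, at 1.68 and 1.48 times. The part of the fibroblast markers in these values was not tested.

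N6-methyladenosine was not measured in these libraries. The density of GGACT, a word within the sequence motif that the writer complex prefers, was counted in the longest protein-coding transcript of each gene as a feature of sequence only. It was 2.72 per kilobase in Col4a1, 2.17 in Col4a2, 1.89 in Lama1, 1.32 in Serpinh1, 1.27 in Hspg2, 1.23 in Lama5, 1.21 in Lamb1, 1.15 in Nid1, 0.656 in Lamc1 and 0.435 in Sparc. The median over 13363 tested genes was 1.06, with quartiles of 0.644 and 1.53. Genes with calls in KO EBs thus lay on both sides of the median, with Sparc and Lamc1 under it and Col4a1, Col4a2, Lama1 and Lamb1 above it.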

How the data were processed

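Poly(A) RNA of 10 ESC and EB libraries was analysed; a WT fibroblast library was not analysed here. Per the labels, a TruSeq RNA kit was used. Tools listed in the submitters' processing notes are TopHat2 2.0.10 with Bowtie, HTSeq 0.6.0, CASAVA 1.8.2 and DESeq, on build mm10, with the annotation and the strand setting not given in the sources used here. The deposited values are a signal: the authors scaled the reads of each gene by 1 DESeq size factor per library. Dividing by the value of 1 read gave whole reads for 100% of values (tolerance 0.01). Summary rows of HTSeq (5) were dropped. Symbols, for 37607 of 39179 identifiers, and exons came from GENCODE for GRCm38, which is mm10.

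Log2(value + 1) of 15781 genes with a mean of 10 or more was fitted with limma 3.58.1 (4 group means, trended and robust variances, 6 residual degrees of freedom), with two-sided tests and Benjamini-Hochberg adjustment over all tested genes within each contrast, at a threshold of 0.05. Differences are on the log2(value + 1) scale. The spread of the EB contrasts is pooled over all groups, ESC replicate C included. EdgeR 4.0.16 and DESeq2 1.42.0 on the recovered reads, TMM scaling, other filters and pseudocounts, a replicate block, and leaving out libraries were alternatives. The block gave ESCs and EBs separate letter terms, with letter A as the base. Its EB against ESC contrasts therefore stand at letter A, while its KO against WT estimates equal those of the main fit. P values measure the spread between these libraries, and the labels do not say that they came from separate cultures. Fits were tested on simulated counts with the same dispersion in all libraries. No C libraries stood apart in them, so that test does not cover the spread of these data. With 2 EB libraries per group, an exact permutation test cannot reach the threshold, and levels, ratios and correlations have no test.

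The 10 genes, the other lists and the tests were chosen with earlier results of these data known. Named genes outside the 10 were, per list in KO against WT EBs, up to 4 called genes per direction ranked by size of the difference, with a mean of at least 100 in the group with more, plus the most abundant gene not called. The 6 genes most like the mean profile and Mettl3 were added. P4hb, Lrp2, Cdh5, Esam, Flt1, Apoa4, Fgb, Emcn, Cdx2, Prl3d1 and Tpbpa were named after their values were seen.

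Letters are shared by KO and WT. Deviations from the group mean correlated at 0.845 (A), 0.828 (B) and 0.858 (C) between KO and WT ESCs of the same letter. This passes the rule of a correlation over 0.1 in every pair. A of one genotype and B of the other gave 0.812 and 0.809, and C with A or B -0.846 to -0.836. The rule would thus also pass with A and B exchanged. It sets C apart in both genotypes and cannot show that A and B are paired. EBs gave 0.369 with 2 pairs, too few to decide.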

Additional observations from a re-analysis of the deposited data

Results flagged for a closer look

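The KO minus WT difference was not the same in EBs and ESCs for 5 of the 10 genes by the test of that contrast (limma, Benjamini-Hochberg over 15781 genes). The KO minus WT log2 difference in EBs less that in ESCs was -7.41 for Lama1, -5.79 for Lamb1, -5.73 for Col4a1, -5.86 for Col4a2 and -3.60 for Sparc. In EBs both KO libraries were below both WT libraries for each of the 5 genes, as they also were for Nid1, which was not called.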

How the results depend on the processing

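All 10 differences between KO and WT EBs kept their direction under all 20 alternatives, 200 of 200 values. Part of this count was fixed by the design. The other filters, the replicate block, the 2 groups alone and leaving out ESC libraries cannot change these estimates. Only TMM scaling, the pseudocounts, edgeR, DESeq2 and leaving out EB libraries could have turned a direction. Of 990 values of single genes over the 5 contrasts, 818 kept direction and side of the threshold, 83 lost the call, 58 gained it and 31 changed sign. TMM scaling, both other filters, both other pseudocounts and edgeR kept each count of called genes among the 10 within a factor of 1.5, while counts over all tested genes moved further (290 in KO against WT EBs became 1351 with no filter, and 376 in KO against WT ESCs became 45). Counts over all 15781 genes also moved. With the 2 groups alone limma called 7768 genes in KO against WT EBs and 60 in WT EBs against ESCs. With single ESC libraries left out it called 89 to 1162 genes in KO against WT EBs and 0 to 2177 in KO against WT ESCs. The same settings called 114 to 1206 in WT EBs against ESCs, 0 to 947 in KO EBs against ESCs and 3 to 497 in the difference of KO effects. Counts of the 10 genes called moved as follows. In KO against WT EBs, 6 became 10 with the 2 groups alone, 10 without both C libraries and 0 to 7 with single libraries left out. In KO against WT ESCs, 0 became 1 with the replicate block, 1 with DESeq2, 8 without both C libraries and 0 to 3 with single libraries left out. In WT EBs against ESCs, 7 became 4 with the 2 groups alone, 10 without both C libraries and 3 to 8 with single libraries left out. In KO EBs against ESCs, 0 became 3 with the replicate block, 3 with DESeq2, 10 without both C libraries and 0 to 3 with single libraries left out. In the difference of KO effects, 5 became 9 without both C libraries and 0 to 6 with single libraries left out. The block changed the calls of Serpinh1, Lama5, Lama1, Lamb1, Nid1 and Lamc1 given above, and no other call of the 10 genes. For Lama1, Lamb1 and Nid1, called in KO EBs against ESCs, the block contrast stands at letter A, so the estimate itself changed with the design. For Serpinh1, Lama5 and Lamc1 the estimate was unchanged and the SE was smaller. Why the SE fell was not tested.

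Signs changed only for differences that had not passed. In KO against WT ESCs, Lama1 (-0.30) became 0.036 with edgeR, 0.00299 with DESeq2, 0.19 without both C libraries and -0.75 to 0.56 with single libraries left out. Col4a1 (-0.09) became -0.46 to 0.12 and Nid1 (0.46) became -0.18 to 1.43 with single libraries left out. In WT EBs against ESCs, Lama5 (0.14) became -0.64 with the replicate block, -0.011 with edgeR, -0.035 with DESeq2, -0.41 without both C libraries and -0.41 to 0.45 with single libraries left out. Nid1 (0.10) became -0.70, -0.10, -0.13, -0.54 and -0.54 to 0.44 under the same settings. For both genes the block value compares letter A only, whereas the main value averages over the letters, C included. In KO EBs against ESCs, Lama5 (-0.19) became -1.19 to 0.35 with single libraries left out. In the difference of KO effects, Lama5 (-0.32) became -1.33 to 0.23 and Hspg2 (0.10) became -0.26 to 0.31 with single libraries left out, and Hspg2 -0.10 without both C libraries.

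The C libraries have fewer reads than the others, but no value of the 10 genes was near the floor.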
